A study of Mus musculus with 12 samples.

Results

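The 35 genes described here encode neuropeptide precursors, the enzymes that cut and modify them, and the granin proteins that share their vesicles. They are 35 of the 55487 genes in the expression table, each found on its own row by its symbol. They were chosen by function after levels in these libraries had been seen, so their own levels and differences are given as a description. Where a member is said to pass a threshold, this only places its difference on the scale used for all genes, with no p-value, and supports nothing about the members. By role they were 8 granins and granin-like proteins, 5 processing enzymes, 16 precursors of neuronal peptides and 6 precursors of other secreted peptide hormones.

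RNA-seq had been made from cultured mouse cells in 4 groups of 3 libraries. Cochlear glial spheres were grown in suspension from the dissected modiolus, the bony core of the cochlea that holds the spiral ganglion, of C57Bl6 and FVB/N mice at postnatal day 4. Their medium, DMEM/F12 with B27 and N2 supplements, contained EGF at 20 ng/ml, bFGF at 10 ng/ml, IGF at 50 ng/ml and heparan sulfate at 50 ng/ml. For the other groups, spheres were plated and differentiated for 14 days. SCDM was DMEM/F12 with B27 and N2, BDNF at 50 ng/ml and NT3 at 50 ng/ml. SCDM/FGF was the same medium with bFGF at 100 ng/ml, so these groups differ in bFGF alone. FIBCL was a Neurobasal medium with B27 and N2, bFGF (listed in the labels at both 50 and 100 ng/ml), LIF at 1000 U/ml, and the small molecules Forskolin and ISX9 at 20 μM each, Chir99021 at 10 μM and I-BET at 1 μM as the labels give it. Base medium, BDNF, NT3, bFGF, LIF and small molecules therefore change together between SCDM and FIBCL and cannot be told apart. Tissue from 6 to 8 mice of both sexes was pooled, and the modiolus also holds cells other than glia. The libraries are labelled biological replicates, but the labels do not say whether they came from separate pools of mice, so the spread between them may be partly technical.

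Neuropeptides are made as longer precursors that enter the regulated secretory pathway. In the trans-Golgi network they condense with granins, acidic proteins that help to form dense-core vesicles. Prohormone convertases cut the precursors at basic residues, carboxypeptidases trim the exposed basic ends, and an amidating enzyme finishes many of the peptides. The vesicles then travel along the axon and are released by calcium, later and farther from active zones than the small vesicles that hold glutamate. Spiral ganglion neurons are mainly glutamatergic, and peptides are known there chiefly from small subsets of cells and from efferent fibres.

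Many granin and peptide genes are known for a cAMP response element close to their start, and Forskolin, one of the FIBCL compounds, raises cAMP. The promoters of the members were therefore searched for its full form, TGACGTCA, which reads the same on both strands. RefSeq promoters on GRCm38.p6, from 250 bases before to 50 after each gene's start, were at hand for 28 members, as 31 promoters. Those of Vgf, Cpe, Calcb, Crh, Penk, Ucn2 and Stc1 were not analysed here. The full element was in 5 of the 31 promoters (16.1%) and in 1.79% of all 32851 promoters of the same length. The members belong to kinds of genes known for this element, so nothing is read from a share above that of all promoters. The 5 are shown because they hold the full element, with 11 bases on either side. The element is in capitals, and each stretch reads 5′ to 3′ on the strand of its gene. The stretches are chr1:79440076-79440105 (minus strand) for Scg2, chr2:132781559-132781588 (plus strand) for Chgb, chr13:75089768-75089797 (plus strand) for Pcsk1, chr13:99900777-99900806 (minus strand) for Cartpt and chr16:23890874-23890903 (minus strand) for Sst.
Scg2: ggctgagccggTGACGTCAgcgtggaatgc
Chgb: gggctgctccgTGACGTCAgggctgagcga
Pcsk1: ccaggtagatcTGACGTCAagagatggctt
Cartpt: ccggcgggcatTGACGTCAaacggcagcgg
Sst: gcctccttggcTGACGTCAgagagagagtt
The element began 68, 72, 78, 112 and 48 bases before the RefSeq start, in the same order. Apart from that of Pcsk1, each also lay inside an exon of the same gene as GENCODE M21 annotates it.

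The core of the element, TGACG on either strand, which every full element also holds, was in 18 of the 31 promoters (58.1%), belonging to 17 members, and in 20.8% of all promoters. The members with the core but not the full element were Chga, Scg3, Scg5, Pcsk2, Nts, Gal, Tac1, Calca, Adcyap1, Vip, Cck and Trh. TTCAGCACC is a part of the RE1 element, through which the repressor REST silences neuronal genes outside neurons. Among the members it was in the promoter of Scg2 only, 1 of 31 promoters (3.23%), and it was in 0.371% of all promoters. Nothing is read from the shares of TTCAGCACC, with a single match, nor from those of the core, for the reason given for the full element. These matches describe the sequence, and no binding was measured. The part of cAMP in the levels of the members was not tested.

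Levels are given as scaled TPM. TPM, a share of all transcripts, is corrected for gene length, so levels of different genes can be set side by side. It was rescaled here so that the bulk of well expressed genes had the same level in every library. Read numbers cannot be recovered from such values, and without a known depth no counting interval can be given. Differences are log2 differences of scaled TPM + 1 with their SE, which understates the change of genes near 0. A gene was called higher or lower when its adjusted p was under 0.05 and the difference at least 1.5 on this scale, and the test covered the 16016 genes that reached 1 TPM in 3 or more libraries. In bulk RNA, fewer cells of a type and less RNA per cell cannot be told apart.

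**Figure D1:**
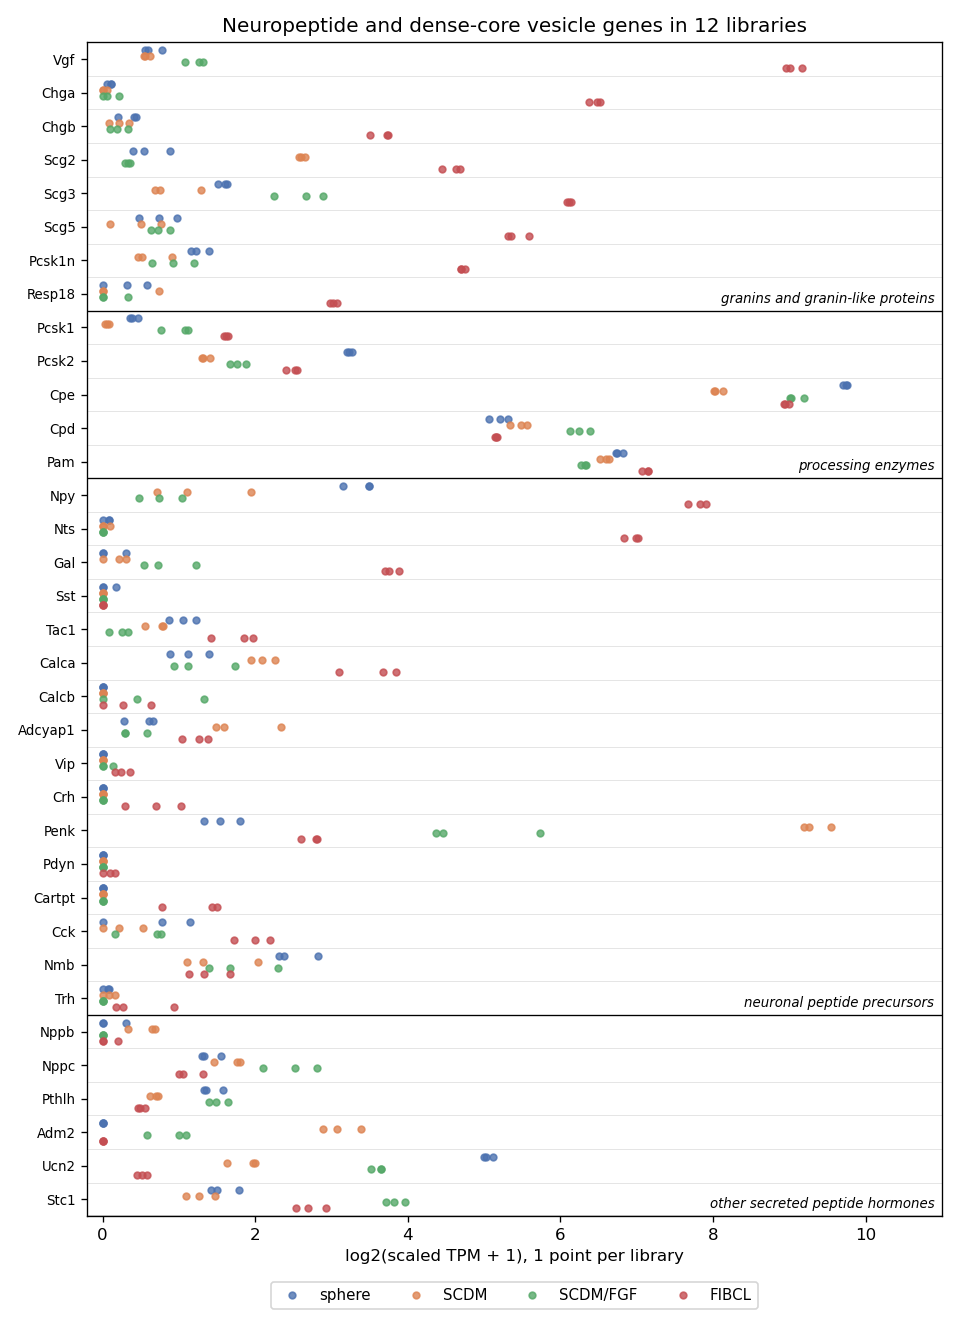
Level of each of the 35 genes in the 12 libraries, as log2(scaled TPM + 1), with a point per library coloured by group and the genes arranged by role. The FIBCL points of all 8 granins lie to the right of all other points, Penk is far to the right in SCDM, and most processing enzymes are well above 0 in every group.

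Of the 35 members, 27 passed the limit on low values and 8 did not. Of the 27, Chga, Chgb, Resp18 and Nts reached 1 TPM in FIBCL only. Scg5, Gal, Cck, Pcsk1 and Tac1 reached it in fewer than 3 libraries outside FIBCL. All of these could therefore pass only through FIBCL, the group where they are high. The highest group mean was in FIBCL for 21 of the 35 members, in spheres and SCDM/FGF for 5 each, and in SCDM for 4. Against SCDM, 13 of the 27 were called higher in FIBCL and 2 lower, beside 7.89% and 9.98% of all genes tested. Against SCDM/FGF the numbers were again 13 and 2, beside 6.97% and 9.8%, and against spheres 12 and 1, beside 7.14% and 8.8%. The median difference of the members tested was 1.44, 1.42 and 1.22 in these comparisons, and that of all genes was −0.07, −0.05 and −0.06. The 3 comparisons share the FIBCL libraries, and because the members were chosen with such differences known, nothing is read from these counts about the list.

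Among the other groups, members moved both ways. In SCDM against spheres 3 were called higher and 4 lower, beside 3.76% and 2.42% of all genes. In SCDM/FGF against spheres 2 were higher and 1 lower, beside 4.12% and 1.92%. With the deposited TPM in place of scaled TPM the latter became 2 higher and 3 lower. In SCDM/FGF against SCDM 3 were higher and 3 lower, beside 2.88% and 1.97%.

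**Figure D2:**
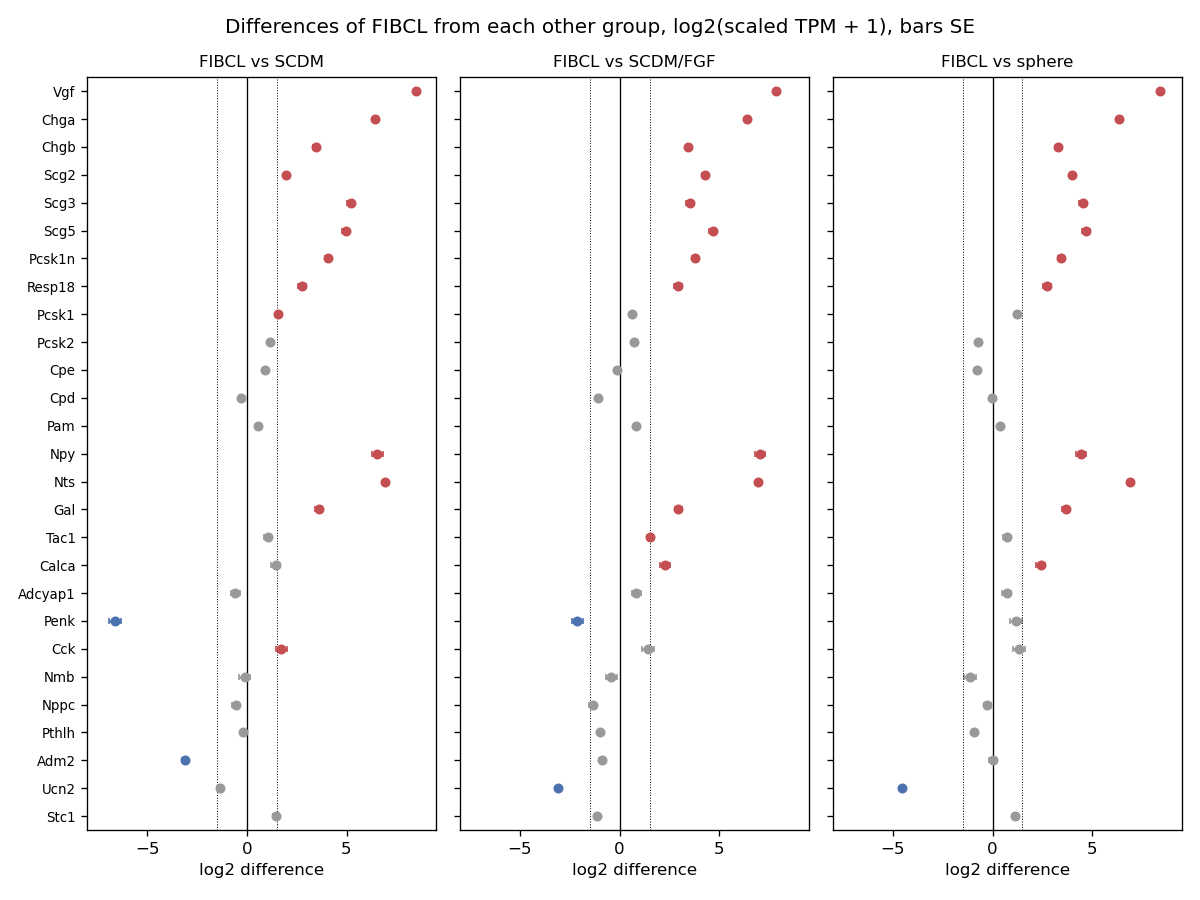
Difference of FIBCL from SCDM, SCDM/FGF and spheres for the 27 members tested, on the log2(scaled TPM + 1) scale with SE bars. Red points were called higher in FIBCL, blue points lower, and grey points were not called; dotted lines mark ±1.5. The granins are red in all 3 panels, the processing enzymes lie between −1.10 and 1.57 with Pcsk1 red against SCDM only, and Penk and Ucn2 are on the left where they are blue.

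The granins and granin-like proteins had their highest level in FIBCL. Each of the 8 differed from each other group by more than the limit. Of all genes, 7.89%, 6.97% and 7.14% were called higher in FIBCL than in SCDM, SCDM/FGF and spheres. Chga, Chgb, Scg5 and Resp18 could have been tested only through FIBCL. The summed level of the 8 was 792.1 ± 44.1 in FIBCL (SD, n = 3), 8.69 ± 0.766 in SCDM/FGF, 7.85 ± 1.13 in SCDM and 5.78 ± 0.431 in spheres. Vgf, a neurotrophin-inducible secreted protein that is cut into several peptides, made up most of the FIBCL sum. It stood at 574.8, 495.7 and 514.0 scaled TPM in FIBCL, at 1.12, 1.41 and 1.49 in SCDM/FGF, at 0.476, 0.458 and 0.539 in SCDM, and at 0.517, 0.472 and 0.723 in spheres. FIBCL lay far above every other library, and SCDM/FGF lay above SCDM and spheres, which overlapped. The difference of FIBCL from SCDM was 8.47 ± 0.10 (SE), the largest among the members in that comparison.

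Chga, chromogranin A, is the classical marker of dense-core vesicles. It was at 90.5, 81.6 and 88.5 in FIBCL and at most 0.161 in every other library, with 3 of those 9 libraries listed at 0. Chgb, chromogranin B, which carries the full element in its promoter, was at 12.3, 10.3 and 12.4 in FIBCL and between 0.0567 and 0.361 elsewhere. The differences from SCDM were 6.44 ± 0.09 for Chga and 3.45 ± 0.12 for Chgb. Both chromogranins were thus near 0 outside FIBCL.

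Scg3, a secretogranin that tethers chromogranin A to the vesicle membrane, differed among the other groups as well. It was at 66.7, 69.5 and 68.1 in FIBCL, at 6.44, 3.75 and 5.35 in SCDM/FGF, at 2.1, 2.05 and 1.86 in spheres and at 1.44, 0.617 and 0.68 in SCDM. No groups overlapped, and the order was FIBCL, SCDM/FGF, spheres, SCDM. The difference of SCDM/FGF from SCDM was 1.69 ± 0.18.

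Scg2, secretogranin II, the precursor of secretoneurin and another carrier of the full element, had a different second place. Its level was 23.8, 24.6 and 20.9 in FIBCL and 5.27, 5.05 and 4.98 in SCDM. In spheres it was 0.313, 0.839 and 0.462, and in SCDM/FGF 0.255, 0.282 and 0.224. SCDM thus stood apart from spheres and SCDM/FGF, and it was higher than spheres by 2.00 ± 0.12, while SCDM/FGF was lower than SCDM, with a difference of −2.28 ± 0.12. The difference of FIBCL from SCDM, 1.98 ± 0.12, was the smallest of the granins.

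The remaining granin-like genes had the simpler pattern. Scg5 encodes 7B2, the chaperone and inhibitor of the convertase PC2, and its level was 39.7, 38.8 and 47.1 in FIBCL and below 1 in every other library. Pcsk1n encodes proSAAS, an inhibitor of the convertase PC1/3, and was between 24.9 and 25.9 in FIBCL and between 0.374 and 1.62 elsewhere. Resp18, an endocrine secretory protein related to the vesicle protein IA-2, was at 7.41, 6.88 and 7.11 in FIBCL and no higher than 0.671 elsewhere. Both convertase-binding proteins were higher in FIBCL than in SCDM, by 4.96 ± 0.18 for Scg5 and 4.09 ± 0.15 for Pcsk1n.

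The processing enzymes did not share this pattern. Their summed level was highest in spheres, at 1002 ± 11.3, and was 695.9 ± 32.3 in SCDM/FGF, 675.7 ± 15.0 in FIBCL and 404.8 ± 12.3 in SCDM. Only Pcsk1 was called in any FIBCL comparison. Pcsk1 encodes PC1/3, which makes the early cuts in many precursors. It was at 2.01, 2.13 and 2.08 in FIBCL, 0.706, 1.18 and 1.12 in SCDM/FGF, 0.28, 0.306 and 0.378 in spheres and 0.0381, 0.056 and 0.0189 in SCDM. No groups overlapped, but the FIBCL level was low beside those of the granins. Its difference of 1.57 ± 0.11 from SCDM fell to 1.36, under the limit, with the deposited TPM.

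Pcsk2 encodes PC2, the convertase that completes many neuronal peptides. It was highest in spheres, at 8.25, 8.61 and 8.42, then in FIBCL at 4.86, 4.77 and 4.28, in SCDM/FGF at 2.39, 2.17 and 2.69, and in SCDM at 1.65, 1.48 and 1.46. The groups did not overlap. Its chaperone gene Scg5, described above, was below 1 scaled TPM in the spheres, where Pcsk2 was highest. SCDM was lower than spheres, with a difference of −1.90 ± 0.09, and FIBCL was lower than spheres as well, with a difference of −0.74 ± 0.09 that was not called.

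Cpe encodes carboxypeptidase E, which removes the basic residues left by the convertases, and it was among the most abundant members in every group. It was at 832.3, 860.2 and 857.4 in spheres, 520.1, 513.4 and 583.5 in SCDM/FGF, 488.1, 510.2 and 490.1 in FIBCL and 279.3, 257.8 and 258.6 in SCDM. SCDM was lower than spheres (difference −1.68 ± 0.05), and FIBCL and SCDM/FGF were separated by only −0.12 ± 0.05. Cpe RNA was thus plentiful in libraries whose granin RNA was low.

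Cpd encodes a related carboxypeptidase of the trans-Golgi network that is found in most cells. It ranged from 68.8 to 83.0 in SCDM/FGF, above the 39.4 to 46.4 of SCDM, the 32.5 to 38.6 of spheres and the 34.7 ± 0.368 (SD, n = 3) of FIBCL, the last pair overlapping. Pam encodes the amidating enzyme and ranged from 133.7 to 140.7 in FIBCL, 105.0 to 112.4 in spheres, 90.7 to 98.2 in SCDM and 76.0 to 79.4 in SCDM/FGF. Neither was called in any comparison. The difference of Pam between FIBCL and spheres was 0.36 ± 0.04 with scaled TPM and −0.18 with deposited TPM, beside −0.06 and −0.52 for the median gene, so Pam lay above the median gene on both scales while its sign differed.

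The precursors changed identity from group to group. Over the 16 neuronal and 6 other peptide precursors, the summed level was 672.4 ± 88.9 scaled TPM in SCDM, 393.9 ± 28.0 in FIBCL, 70.1 ± 21.0 in SCDM/FGF and 57.2 ± 1.14 in spheres. Penk accounted for 96.2 ± 0.252% of the sum in SCDM. In FIBCL, Npy accounted for 56.6 ± 1.57% and Nts for 31.3%, 30.6% and 31.5% in the 3 libraries. In spheres Ucn2 led with 56.0 ± 2.05% and Npy came next. In SCDM/FGF Penk led with 41.8 ± 11.8% and Stc1 came next, at 15.4% to 23.3%.

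**Figure D3:**
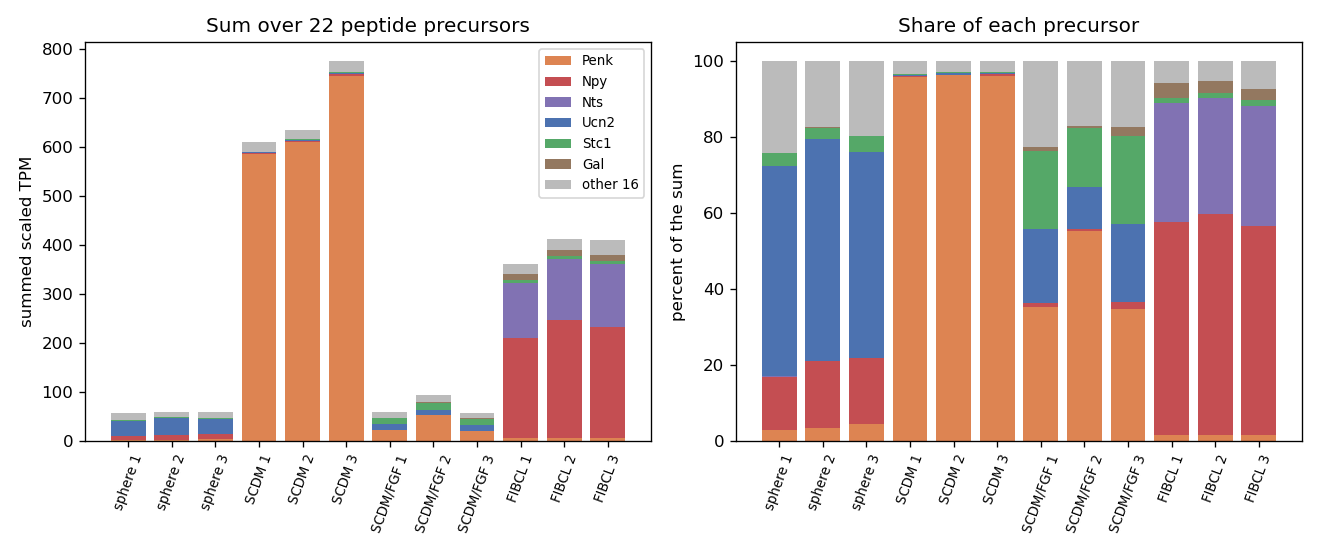
Summed scaled TPM of the 22 peptide precursors in each library (left) and the percent contributed by each (right). Penk fills the SCDM bars, Npy and Nts most of the FIBCL bars, and Ucn2 the largest part of the sphere bars; the SCDM/FGF bars are small and mixed.

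Npy, neuropeptide Y, a peptide of the sympathetic system and of many interneurons, was at 203.7, 239.6 and 225.5 in FIBCL. It was at 7.92, 10.2 and 10.2 in spheres, 1.16, 0.635 and 2.84 in SCDM and 0.676, 0.393 and 1.05 in SCDM/FGF. FIBCL was highest and spheres lay above both neurotrophin media, which overlapped with each other. The difference of FIBCL was 6.55 ± 0.26 from SCDM and 4.43 ± 0.26 from spheres, and that of SCDM from spheres was −2.12 ± 0.26.

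Nts, the precursor of neurotensin and neuromedin N, was at 113.0, 125.8 and 128.8 in FIBCL. In spheres and SCDM no library was above 0.0661, and all SCDM/FGF libraries were listed at 0. Its difference between FIBCL and SCDM was 6.92 ± 0.09. Gal, the precursor of galanin, a peptide raised in many injured sensory neurons, was at 13.8, 12.5 and 12.0 in FIBCL, 0.657, 0.463 and 1.34 in SCDM/FGF and no higher than 0.243 in spheres and SCDM. Its difference between FIBCL and SCDM was 3.60 ± 0.17.

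Calca encodes calcitonin and CGRP, the latter a peptide of cochlear efferents and pain fibres. It was at 7.53, 11.8 and 13.4 in FIBCL, 3.78, 3.25 and 2.85 in SCDM, 0.911, 2.33 and 1.18 in SCDM/FGF and 0.839, 1.63 and 1.18 in spheres. FIBCL did not overlap the rest, and SCDM/FGF overlapped spheres. The difference of FIBCL from SCDM was 1.44 ± 0.24, just under the limit, and it was 2.27 ± 0.24 from SCDM/FGF. Calcb, its paralog with a nearly identical CGRP part, reached 1.51 in an SCDM/FGF library and no more than 0.552 in any other. How reads shared by the pair were divided is uncertain.

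Cck and Tac1, the precursors of cholecystokinin and of substance P, were low in all groups. Cck was at 3.0, 2.29 and 3.59 in FIBCL and reached at most 1.22 elsewhere, with a difference of 1.72 ± 0.28 from SCDM that became 1.48 with the deposited TPM. Tac1 was at 2.63, 1.69 and 2.92 in FIBCL, 1.33, 0.831 and 1.08 in spheres, 0.476, 0.738 and 0.718 in SCDM and 0.196, 0.0604 and 0.264 in SCDM/FGF. It was called only against SCDM/FGF, at 1.53 ± 0.16, and lay between 1.42 and 1.47 when FIBCL replicate 1, FIBCL replicate 3 or SCDM/FGF replicate 2 was left out.

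Several precursors scarcely appeared in any group. Cartpt, which encodes CART peptides, was at 1.71, 0.714 and 1.84 in FIBCL and listed at 0 in all other libraries. Crh, corticotropin-releasing hormone, was at 0.622, 0.222 and 1.04 in FIBCL and listed at 0 elsewhere. Trh, Vip and Pdyn, the precursors of thyrotropin-releasing hormone, vasoactive intestinal peptide and dynorphins, stayed under 1 in all libraries. Sst, the precursor of somatostatin, was listed at 0 in 11 libraries and at 0.134 in a sphere library. Cartpt and Sst both carry the full element in their promoters, as Scg2, Chgb and Pcsk1 do, and the levels of the 5 carriers in FIBCL ran from 0 for Sst through at most 1.84 for Cartpt and 2.13 for Pcsk1 to 12.4 for Chgb and 24.6 for Scg2.

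Penk, the precursor of enkephalins, the opioid peptides of many neurons and of some mesenchymal cells, was the most uneven member outside FIBCL. It was at 585.0, 610.4 and 744.8 in SCDM, 21.0, 52.2 and 19.6 in SCDM/FGF, 5.09, 6.0 and 5.98 in FIBCL and 1.52, 1.91 and 2.5 in spheres. No groups overlapped. SCDM was higher than spheres by 7.77 ± 0.29, SCDM/FGF was lower than SCDM by a difference of −4.48 ± 0.29, and FIBCL lower than SCDM by −6.59 ± 0.29. An antisense transcript, A830012C17Rik, shares 233 of the 1634 exonic bases of Penk, and whether counting used the strand is not stated.

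Adm2, which encodes intermedin of the calcitonin family, was also highest in SCDM, at 7.42, 6.44 and 9.5. It was at 1.0, 1.13 and 0.498 in SCDM/FGF and was listed at 0 in all sphere and FIBCL libraries. Adcyap1, the precursor of PACAP, a peptide that raises cAMP in its target cells, was at 1.8, 2.02 and 4.06 in SCDM, 1.05, 1.6 and 1.41 in FIBCL, 0.584, 0.21 and 0.521 in spheres and 0.225, 0.494 and 0.224 in SCDM/FGF. SCDM did not overlap any other group, but none of its differences was called. Nppb, B-type natriuretic peptide, was at 0.571, 0.617 and 0.255 in SCDM and at most 0.235 elsewhere. With Penk, these were the 4 members highest in SCDM, so their means in SCDM/FGF were lower by the way they were picked. In SCDM/FGF against SCDM, Adm2 and Penk were called lower, Adcyap1 was not called and Nppb was not tested.

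**Figure D4:**
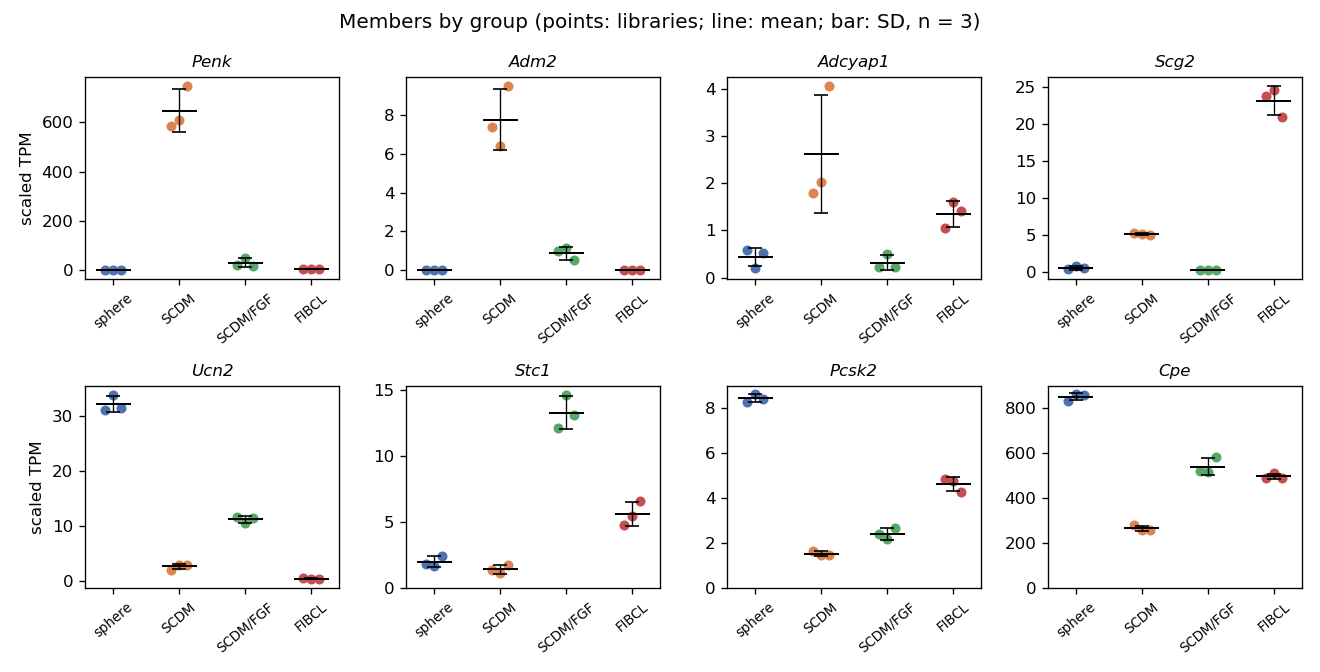
Scaled TPM of 8 members in the 4 groups, with a point per library, the mean as a line and the SD as a bar (n = 3). Penk, Adm2 and Adcyap1 are highest in SCDM, Scg2 has its second level in SCDM, Ucn2, Pcsk2 and Cpe are highest in spheres, and Stc1 is highest in SCDM/FGF.

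Ucn2, urocortin 2, a ligand of the type 2 receptor for corticotropin-releasing hormone, led the sphere precursors. It was at 31.0, 33.7 and 31.5 in spheres, 11.6, 10.5 and 11.5 in SCDM/FGF, 2.09, 3.0 and 2.93 in SCDM and 0.502, 0.369 and 0.434 in FIBCL. No groups overlapped, and FIBCL was lowest. SCDM was lower than spheres, with a difference of −3.18 ± 0.11, and SCDM/FGF higher than SCDM by 1.74 ± 0.11. Nmb, neuromedin B, was at 6.06, 4.21 and 3.97 in spheres and between 1.16 and 3.93 elsewhere, and was not called in any comparison.

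Stc1, stanniocalcin 1, a secreted regulator of calcium and phosphate, was at 12.1, 14.6 and 13.1 in SCDM/FGF and 4.8, 5.47 and 6.62 in FIBCL. It was at 1.84, 1.67 and 2.46 in spheres and 1.4, 1.13 and 1.79 in SCDM, the last pair overlapping. SCDM/FGF was higher than SCDM by 2.55 ± 0.14. Nppc, C-type natriuretic peptide, ranged from 3.31 to 5.99 in SCDM/FGF and from 0.999 to 2.49 elsewhere. Pthlh, parathyroid hormone-related protein, ranged from 1.63 to 2.13 in SCDM/FGF and 1.51 to 2.0 in spheres, and was no higher than 0.661 in SCDM and FIBCL. Neither was called.

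The other genes of the pathway were taken from lists arranged by role, also drawn up with earlier results of these libraries known. Of 49 genes for the biogenesis, transport and fusion of dense-core vesicles, 45 were tested, and 16 were called higher and 0 lower in FIBCL against SCDM, beside 7.89% and 9.98% of all genes. Against SCDM/FGF 13 were called higher and 0 lower, beside 6.97% and 9.8%, and against spheres 15 higher and 1 lower, beside 7.14% and 8.8%. By adjusted p alone, 30 were higher and 8 lower against SCDM, the lower ones including Sorcs3, a sorting receptor, at −1.20 ± 0.10 (limma, adjusted p = 4.28e-07). Of the 16, Ptprn2, Rab3b, Syt5 and Sytl5 reached 1 TPM in FIBCL only and so passed the limit on low values through that group. The median difference of the 45 genes tested was 0.76, 0.84 and 0.78 against SCDM, SCDM/FGF and spheres, beside −0.07, −0.05 and −0.06 for all genes. Ptprn encodes IA-2, a transmembrane protein of the vesicle that stabilises it. It was between 204.9 and 216.5 scaled TPM in FIBCL, 76.1 and 84.7 in SCDM/FGF, 14.9 and 17.4 in spheres and 1.08 and 1.7 in SCDM. It rose by 6.44 ± 0.09 in FIBCL against SCDM (limma, adjusted p = 3.9e-13) and by 5.06 ± 0.09 in SCDM/FGF against SCDM (limma, adjusted p = 2.59e-11). Cadps encodes CAPS1, which primes dense-core vesicles for release, and was between 22.9 and 26.2 in FIBCL and at most 2.24 elsewhere, a rise of 4.21 ± 0.27 over SCDM (limma, adjusted p = 6.6e-08). Syt4 encodes a synaptotagmin of peptide vesicles and rose by 2.99 ± 0.11 (limma, adjusted p = 5.12e-10) and ranged from 0.056 to 0.208 in SCDM and from 7.62 to 8.59 in FIBCL.

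**Figure D5:**
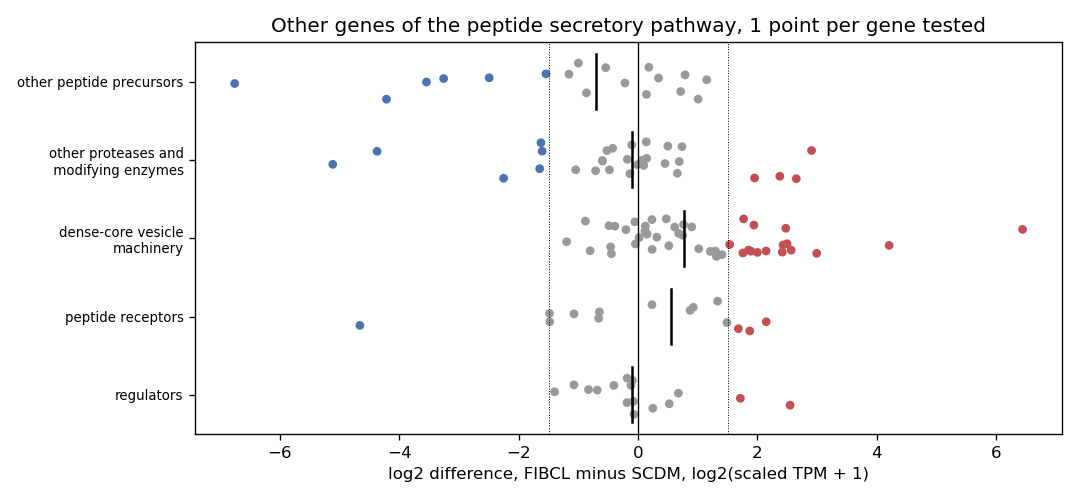
Difference between FIBCL and SCDM for each tested gene of 5 lists of the pathway, on the log2(scaled TPM + 1) scale. Red points were called higher in FIBCL, blue points lower, black bars are the list medians and dotted lines mark ±1.5; vesicle machinery genes have called points on the right only (16), and other peptide precursors on the left only (6).

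Of 56 other peptide precursors outside the members, only 18 were tested, and 0 were called higher and 6 lower in FIBCL against SCDM, beside 7.89% and 9.98% of all genes. By adjusted p alone 4 were higher, among them Bdnf at 1.01 ± 0.10 (limma, adjusted p = 2.56e-06), and 10 lower. Igf1, insulin-like growth factor 1, fell by 6.76 on the log2 scale (SE 0.06, limma, adjusted p = 1.87e-14) and was between 176.5 and 192.4 in SCDM and between 0.604 and 0.749 in FIBCL. Agt, angiotensinogen, was between 156.3 and 162.7 in spheres, 16.1 and 18.9 in SCDM and 0.0 and 0.0479 in FIBCL. Adm, adrenomedullin, was between 204.1 and 272.8 in SCDM/FGF, 25.8 and 26.8 in SCDM and 0.631 and 2.32 in FIBCL, and so was opposite to its relative Adm2 between the neurotrophin media. It rose by 3.09 ± 0.20 in SCDM/FGF against SCDM (limma, adjusted p = 2.77e-07). Edn3, Stc2 and Nucb2, which encode endothelin 3, stanniocalcin 2 and nesfatin, were the others called lower.

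Of 32 other proteases and modifying enzymes, 31 were tested, and 4 were called higher and 6 lower in FIBCL against SCDM, beside 7.89% and 9.98% of all genes. Those that rose most were Qpct, which forms the pyroglutamate at the start of neurotensin and other peptides, by 2.91 ± 0.07 (limma, adjusted p = 2.84e-11), Ctsb, a lysosomal cathepsin, by 2.65 ± 0.05, and Mmel1, a neprilysin-like peptidase, by 2.37 ± 0.12. Qpct was between 126.1 and 135.2 in FIBCL and at most 19.7 elsewhere, and Mmel1 reached 1 TPM in FIBCL only. The largest falls were those of enzymes that break down peptides outside the cell or resemble them. Mme, neprilysin, was between 1.8 and 2.02 in FIBCL and 92.8 and 108.8 in SCDM, and Enpep, aminopeptidase A, was between 0.631 and 1.29 in FIBCL and 7.64 and 9.22 in SCDM. Cpxm2, a carboxypeptidase-like protein without known catalysis, was between 180.2 and 196.0 in SCDM and at most 10.7 in every other group.

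Of 41 peptide receptors and their accessory proteins, 14 were tested, and 3 were called higher and 1 lower in FIBCL against SCDM, beside 7.89% and 9.98% of all genes. With the deposited TPM the numbers were 2 and 3, and by adjusted p alone 7 and 6. Ramp1 and Ramp3, which turn the calcitonin receptor-like receptor into a receptor for CGRP or adrenomedullin, rose by 1.87 ± 0.14 (limma, adjusted p = 2.28e-07) and 1.68 ± 0.11 (limma, adjusted p = 5.66e-08). The receptor itself, Calcrl, was lower by a difference of −1.48 ± 0.19 (limma, adjusted p = 2.81e-05), and Ramp2, the other accessory protein, by −1.48 ± 0.21 (limma, adjusted p = 7.06e-05), both just short of the limit. Npr1, the receptor for the A and B types of natriuretic peptide, rose by 2.15 ± 0.23 (limma, adjusted p = 5.51e-06). Npr3, the clearance receptor of these peptides, was between 33.4 and 38.3 in SCDM and 0.381 and 0.514 in FIBCL.

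Of 19 regulators known for granin and peptide genes, 16 were tested, and Crem and Neurod1 were called higher and 0 lower in FIBCL against SCDM, beside 7.89% and 9.98% of all genes. With the deposited TPM 1 was higher and 1 lower, and by adjusted p alone 5 were higher and 5 lower, the latter with Fos at −1.40 ± 0.09 (limma, adjusted p = 7.03e-08). Against spheres 2 were called higher and 3 lower. Crem, the cAMP response element modulator, was between 64.0 and 77.0 in FIBCL and at most 23.1 elsewhere, a rise of 2.55 ± 0.16 (limma, adjusted p = 4.37e-08). Neurod1, a transcription factor of neurons and endocrine cells, was between 2.03 and 2.71 in FIBCL and at most 0.0302 elsewhere, so it passed the limit on low values through FIBCL only. Rest was added after its values were seen. It was between 21.4 and 23.6 in FIBCL, 18.5 and 20.5 in spheres, 15.2 and 15.8 in SCDM and 13.2 and 14.5 in SCDM/FGF. The part of REST in the granin levels was not tested.

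Levels of cell type markers also differed between the groups. Summed over 14 neuron markers, scaled TPM was between 631.1 and 655.0 in FIBCL, 202.7 and 221.3 in SCDM, 175.5 and 193.4 in spheres and 106.1 and 132.0 in SCDM/FGF. Gap43, the most abundant of them in the other groups, was at 71.0 to 77.6 in FIBCL, its lowest group, where Stmn2 led. The sum over 11 glial markers was between 20.6 and 27.5 in FIBCL and 300.0 and 880.6 elsewhere. For 11 mesenchyme markers it was between 225.4 and 240.4 in FIBCL and 2763 and 6192 elsewhere. The sum of 8 chromaffin and sympathetic markers, cells rich in chromogranin A and Npy, stayed under 4 in every library, with 7 of the 8 under 1 scaled TPM in FIBCL and Hand2 at 1.21 to 2.0. The part of other cell types in the level of each member was not tested.

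Penk was highest in SCDM and lowest in spheres, and the part of cell types in its level was not tested. The mesenchyme sum was between 5956 and 6192 in SCDM and between 5438 and 5798 in SCDM/FGF. Col1a2, its most abundant gene in SCDM, was between 3220 and 3481 in SCDM and between 882.4 and 1065 in SCDM/FGF. The rest of the mesenchyme sum was larger in SCDM/FGF than in SCDM, and Col3a1 led it in SCDM/FGF, at 2110 to 2460. The sum of 8 macrophage markers was between 1484 and 1615 in SCDM, 1591 and 1728 in SCDM/FGF, 123.3 and 159.6 in spheres and 167.7 and 198.2 in FIBCL. C1qa led it in SCDM and SCDM/FGF and was at most 0.562 in FIBCL, where most of the sum was Cd68, a lysosomal protein. Endothelial markers summed to between 42.9 and 51.2 in SCDM, 264.5 and 303.4 in SCDM/FGF, 105.0 and 108.3 in spheres and 13.1 and 13.7 in FIBCL, and Emcn led them in every group but FIBCL, where it was listed at 0. Hair cell markers summed to at most 48.0, led by Slc17a8 in spheres and by Myo7a elsewhere, and melanocyte markers, led by Mitf, to at most 9.48 in any library.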

How the data were processed

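Reads were trimmed by the authors (SeqPrep, Sickle), aligned with TopHat as the submitters' processing notes list, and quantified with RSEM, and the authors deposited TPM values with 2 decimals. The genome build is not given in the sources used here. The FIBCL columns of the table are named FIBC and were matched to the only such group in the labels. Libraries were rescaled by the mean log2 ratio over 8434 genes that reached 5 TPM in all libraries, leaving out the outer 30% on either side. Genes that reached 1 TPM in 3 or more of the 12 libraries were tested with limma 3.58.1 (R 4.3.3), as log2(scaled TPM + 1), in a model of the 4 groups with moderated variances following the mean, and p-values were adjusted by Benjamini-Hochberg within each of 6 comparisons. On simulated data, 191 of 200 genes changed by 2 log2 units were recovered. The members and lists were chosen with earlier results of these data known. All members were named, and of each list all genes called between FIBCL and SCDM, or, beyond 6, the 3 highest and 3 lowest called. Named outside this rule were Rest, Sorcs3, Bdnf, Fos, Calcrl and Ramp2, none of them called between FIBCL and SCDM. Ptprn2, Rab3b, Syt5 and Sytl5 were also named outside it. Positions came from GENCODE M21 (GRCm38). Exons of Pcsk1n, Resp18, Pcsk2, Pam, Penk, Nmb and Stc1 overlap those of other genes, and the strand setting of the counting is not given in the sources used here.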

Additional observations from a re-analysis of the deposited data

How the results depend on the processing

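No member's difference changed direction past the limit under any alternative run, which were other scalings, pseudocounts of 0.1 and 0.5, other limits on low values, fits of the compared groups alone, a replicate block, leaving out each library, and other call rules. Of the member values under these alternatives 2403 had the same call as in the main run, 141 were newly called and 6 were no longer called. Only members tested in a run are counted here, so calls lost because a member was no longer tested are not among the 6. With a limit of 5 TPM in at least 3 libraries 20 members were tested. Of these, 13 were called in FIBCL against SCDM and 14 against SCDM/FGF, beside 15 and 15 in the main run. The newly called include values under adjusted p alone or a log2 limit of 1, where the limit changed and the value did not. With the deposited TPM, the calls lost in FIBCL were Pcsk1 (1.36) and Cck (1.48) against SCDM and Tac1 (1.31) against SCDM/FGF. The call of Tac1 against SCDM/FGF was also lost with FIBCL replicate 1 (1.47), FIBCL replicate 3 (1.42) or SCDM/FGF replicate 2 (1.45) left out. With the deposited TPM the median of all genes in FIBCL shifted to −0.40 against SCDM, −0.31 against SCDM/FGF and −0.52 against spheres.

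Counts of called members moved by over 1.5 times in these cases. In SCDM/FGF against spheres, the 3 called became 5 with the deposited TPM, 8 with a pseudocount of 0.1 and 8 with a log2 limit of 1, and in SCDM/FGF against SCDM the 6 became 10 with a pseudocount of 0.1. With adjusted p alone as the rule, the counts were 25, 25 and 24 for FIBCL against SCDM, SCDM/FGF and spheres, 16 for SCDM against spheres, 15 for SCDM/FGF against spheres and 18 for SCDM/FGF against SCDM. The same rule gave 14 other peptide precursors, 21 other proteases and modifying enzymes, 38 vesicle machinery genes, 13 peptide receptors and 10 regulators, and a pseudocount of 0.1 gave 11 peptide receptors. These pseudocounts and rules act on genes with low values or small differences by construction.

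Replicate numbers did not pair the libraries. The correlation of deviations from the group mean was between −0.121 and 0.098 over 18 pairs with the same number and between −0.073 and 0.12 over 36 with different numbers. With the replicate block the counts of called members were 15, 15, 13, 7, 3 and 6, as without it. The table holds no read counts, so the precision of low values such as those of Sst, Vip and Pdyn is unknown.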
